A study of Homo sapiens with 6 samples.

Results

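Collagens, laminins, integrins and fibronectin make up the matrix that surrounds a cell and the receptors by which the cell holds on to it. They were followed here in Rh30, a human alveolar rhabdomyosarcoma cell line. The members were the protein-coding genes of the annotation whose symbol has the form of a collagen chain, or begins with LAMA, LAMB, LAMC, ITGA or ITGB followed by a digit or V, with FN1 added. The rule took 81 of 19951 protein-coding genes: 44 collagens, 12 laminins, 21 integrins, FN1, and 3 genes (ITGB1BP1, ITGB1BP2 and ITGB3BP) that match its letters but are named as integrin-binding proteins. Rh30 carries the PAX3-FOXO1 fusion, as do all libraries of both groups. The control group held 3 libraries of cells labelled as control for knockdown, and the siDDX5 group held 3 libraries of the same line after knockdown of DDX5, a DEAD-box RNA helicase. No time after knockdown, no dose and no description of the control reagent stands in the labels, and all libraries come from a single tumour cell line. The submitters call the 3 libraries of a group biological replicates. They do not say whether these were separate cultures, so a p-value measures the spread between these libraries.

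Collagens are trimers of chains wound around each other. Fibril-forming collagens build cables, network-forming type IV collagen builds the sheet of the basement membrane, and laminins, trimers of an alpha, a beta and a gamma chain, form the other sheet. Integrins are pairs of an alpha and a beta chain that span the membrane, bind these proteins outside the cell and connect to actin inside it. Skeletal muscle fibres lie in such a basement membrane, to which they are tied through LAMA2-containing laminin, the integrin chain ITGA7 with ITGB1, and dystroglycan.

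The targeted gene followed the labels. DDX5 lay between 1137 and 1434 normalised CPM (counts scaled to a common library total) in the control libraries and between 396 and 549 CPM in the siDDX5 libraries, 2.71-fold lower (log2 fold change -1.44, SE 0.15, adjusted p = 0.0106, edgeR quasi-likelihood test). Without control replicate 1, siDDX5 replicate 1 or siDDX5 replicate 2, its adjusted p was 0.0955, 0.0655 or 0.0531. The libraries held 18202402 to 26156858 estimated counts, with the siDDX5 libraries the less deep of the 2 groups throughout. A count of 3 corresponded to 0.115 to 0.165 CPM. Of the marker lists, the 11 muscle and rhabdomyosarcoma genes summed to 1180 to 1517 TPM in the control and 1139 to 1211 in the siDDX5 libraries, with TFAP2B at 0. The 7 fibroblast markers summed to 78.5 to 104 and 91.7 to 107 TPM, of which THY1 made up most. Epithelial, endothelial and blood markers each summed to between 1.38 and 7.27 TPM, with KRT19 and HBB at 0.

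In TPM, a level scaled by transcript length and library total that allows genes to be compared, 34 members had a mean of at least 10, 16 lay between 1 and 10, and 31 lay under 1. The integrin beta chain ITGB1, the shared partner of many alpha chains, was the highest member. It stood at 663, 569 and 693 TPM in control replicates 1, 2 and 3 and at 641, 473 and 596 TPM in the siDDX5 replicates. All 6 of its values lay above those of the next gene, LAMC1, the gamma chain of most laminins, which had a mean of 208 ± 23.7 TPM in the control and 194 ± 39.9 in the siDDX5 libraries (SD, n = 3). From LAMC1 down to LAMB2, the 21st gene, each gene's range over the 6 libraries overlapped that of the next. LAMC1, ITGB3BP and LAMB1 nevertheless came in this order in all 6 libraries. The most abundant collagens in the control were COL27A1, a fibril-forming chain of cartilage and other tissues, at a mean of 101 ± 26.4 TPM, the basement membrane chain COL4A2 at 84.6 ± 16.3, COL14A1, which binds to the surface of fibrils, at 78.0 ± 4.40, and COL5A1, which starts and limits fibrils, at 73.0 ± 19.6 (SD, n = 3). In the siDDX5 libraries COL14A1, at 86.6 ± 11.4 TPM, lay above COL4A1 (79.4 ± 16.0), COL5A1 (79.1 ± 17.8) and COL27A1 (65.8 ± 11.8; SD, n = 3). The chains of type I collagen, the main product of fibroblasts, were far lower: COL1A1 had a mean of 14.9 ± 0.308 TPM and COL1A2 of 0.336 ± 0.0552 TPM in the control (SD, n = 3).

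**Figure D1:**
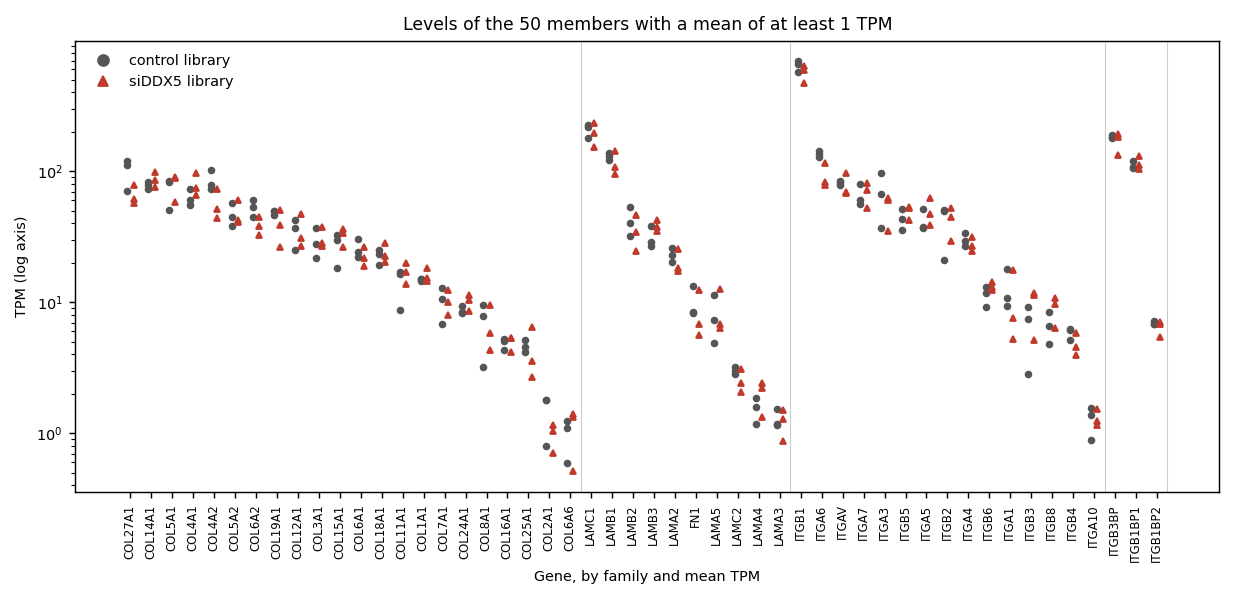
TPM (log axis) of the 50 members with a mean of at least 1 TPM in each of the 6 libraries, by family and then by mean; circles are control and triangles siDDX5 libraries. ITGB1 stands alone at the top, between 473 and 693 TPM, and COL27A1 has the highest mean of the collagens over the 6 libraries.

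Summed over each family, the matrix and receptor mRNA had group means that lay within 1 SD of each other and overlapping groups. The 44 collagens summed to 760 ± 67.3 TPM in the control and 714 ± 123 in the siDDX5 libraries, the 12 laminins to 449 ± 40.6 and 418 ± 75.4, and the 21 integrins to 1194 ± 132 and 1080 ± 174 (SD, n = 3). The integrin sum was lower in the siDDX5 library of each numbered pair (1235 and 1222, 1046 and 886, 1300 and 1132 TPM). Within it, the mean of ITGB1 was 641 TPM in the control and 570 in the siDDX5 libraries, and that of ITGA6 136 and 92.4. The chains did not move together: of 17 tested integrins, 11 had a log2 fold change above 0 and 6 below in edgeR without the block. Within the collagens, the fibril-forming chains gave the largest sum, 289 ± 11.1 TPM in the control and 269 ± 38.4 in the siDDX5 libraries. The type VI and other microfibril and anchoring chains summed to 101, 79.1 and 92.7 TPM in the control replicates and to 84.6, 64.3 and 72.5 in the siDDX5 replicates. These ranges overlapped, but each siDDX5 library lay below the control library of its number. COL6A2 made up much of this difference, with a mean of 53.0 TPM in the control and 38.6 in the siDDX5 libraries. The sums were not tested.

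Of the 81 members, 62 had enough counts to be tested among 15223 genes. The 19 others were COL4A3, COL4A4, COL4A5, COL4A6, COL5A3, COL6A5, COL9A2, COL9A3, COL13A1, COL21A1, COL22A1, COL23A1, COL26A1, LAMB4, LAMC3, ITGA2B, ITGA8, ITGA9 and ITGB7, each with a mean of at most 0.486 TPM, and COL4A4 was at 0 counts in all 6 libraries. With the group as the only term, 0 of the 62 members passed an adjusted p of 0.05 in edgeR, against 25 genes (0.164%) of all genes tested. At an unadjusted p under 0.05 stood 6 members (9.68%; 3 higher and 3 lower), against 11.4% of all genes. DESeq2 called 1 member, COL4A2, of the 42 to which it gave an adjusted p (2.38%), against 2.99% of all such genes. The members' log2 fold changes ran from -0.65 to 0.56 with a median of 0.02; 32 were above 0 and 30 below. The median of all genes was 0 to the second decimal.

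Same-numbered libraries of the 2 groups shared part of their deviation, and a fit that took the replicate number as a block changed the calls. With the block, 3 of the 62 members (4.84%) passed, against 2.59% of all genes: COL4A2 fell, and the integrin beta chains ITGB3 and ITGB8 rose. At an unadjusted p under 0.05 in that fit stood 16 members (25.8%; 9 higher and 7 lower), against 20.5% of all genes. With so few members called, nothing particular to them is read from these shares. The control and siDDX5 libraries did not overlap in CPM for 3 lower members, COL4A2, ITGA6 and ITGB1BP2 (4.84%), against 9.16% of all genes. They did not overlap for 2 higher members, COL14A1 and COL24A1 (3.23%), against 8.87% of all genes. Of these members, only ITGA6 also stayed apart in TPM.

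**Figure D2:**
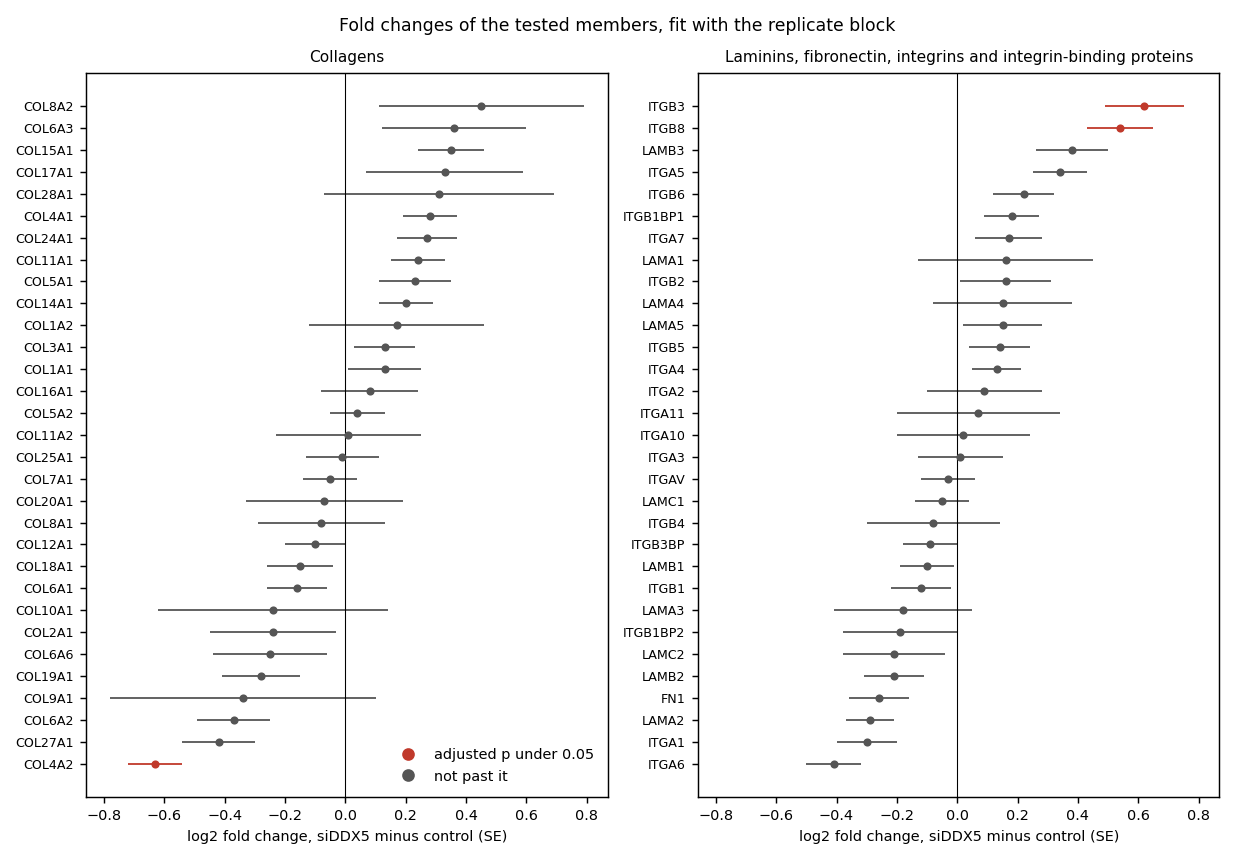
Log2 fold change, siDDX5 minus control, with its SE, for the 62 tested members in the edgeR fit with the replicate block; red marks an adjusted p under 0.05. Most members lie within 0.4 of 0, COL4A2 lies lowest at -0.63, and ITGB3 (0.62) and ITGB8 (0.54) lie highest among the receptors.

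COL4A2 and COL4A1 encode the chains that join in the widespread form of type IV collagen, and the 2 genes lie head to head on chromosome 13 and share a promoter. COL4A2 (ENSG00000134871.18) lies on the plus strand of GRCh38 at chr13:110305812-110513209 and COL4A1 (ENSG00000187498.15) on the minus strand at chr13:110148963-110307233. The stretch between their RefSeq start sites is shown because both genes have it in common. It is 126 bases long, chr13:110307158-110307283 of GRCh38.p14, written on the plus strand so that COL4A2 starts just after its end and COL4A1 just before its beginning, reading the other way. It lies upstream of both RefSeq transcripts, and the GENCODE start of COL4A1 falls within it. The GENCODE start of COL4A2 lies before the stretch and inside COL4A1, so in GENCODE the 2 genes overlap on opposite strands.
COL4A1-COL4A2 shared promoter: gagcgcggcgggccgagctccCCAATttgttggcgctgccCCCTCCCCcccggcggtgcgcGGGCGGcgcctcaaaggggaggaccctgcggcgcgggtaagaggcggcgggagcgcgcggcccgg
Capitals mark a CCAAT box, a CTC box (CCCTCCCC) and a GC box (GGGCGG), each found once in a search of both strands, at bases 22, 41 and 62. G and C make up 80.2% of the stretch. Of 35116 RefSeq promoter windows of the same length, taken just before each start, 21.1% hold CCAAT, 8.27% hold CCCTCCCC and 34.6% hold GGGCGG on either strand. A match of letters describes the stretch and does not show that a factor binds there.

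The 2 genes gave unlike values. COL4A2 stood at 495, 325 and 365 CPM in control replicates 1, 2 and 3 and at 296, 221 and 241 CPM after knockdown. Every siDDX5 library lay below every control library, and replicate 1 was the highest of each group. Its log2 fold change was -0.65 (SE 0.17, 1.56-fold lower), with an adjusted p of 0.20 in edgeR without the block, and -0.63 (SE 0.09, adjusted p = 0.0122) with it. Without both libraries of replicate 3, the block fit gave -0.65 with an adjusted p of 0.0561, which missed the threshold. In bulk RNA, a lower level in every cell and fewer cells with a high level cannot be told apart. COL4A1 stood at 379, 279 and 298 CPM in control replicates 1 to 3 and at 451, 329 and 377 CPM after knockdown. Its groups overlapped, although each siDDX5 library was above the control library of the same number. Its log2 fold change was 0.28 (SE 0.09, adjusted p = 0.129) with the block in edgeR, so it did not pass the test.

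The ratio of COL4A2 to COL4A1 counts was taken after these values had been seen. It was 1.31, 1.17 and 1.22 in control replicates 1, 2 and 3 and 0.657, 0.671 and 0.638 in the siDDX5 replicates. COL4A2 had more counts than COL4A1 in each control library and fewer in each siDDX5 library, and the ratio varied little within a group (1.23 ± 0.0707 and 0.656 ± 0.0164, SD, n = 3). The ratio was 1.88-fold lower in the siDDX5 group (-0.91 on the log2 scale). No test is given for it, since the pair was chosen for this difference, and 3 libraries against 3 cannot go below an exact p of 0.10. Because both genes are counted in the same library, the ratio does not depend on depth or on the scaling between libraries. In TPM the ratio was 1.4, 1.30 and 1.29 in the control and 0.754, 0.672 and 0.689 in the siDDX5 replicates, and for the most abundant transcript of each gene alone the log2 difference was -0.95.

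**Figure D3:**
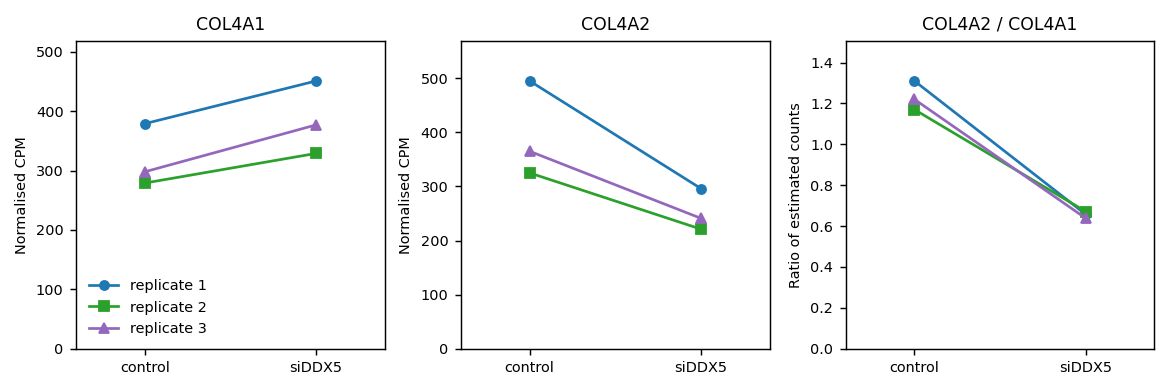
Normalised CPM of COL4A1 and COL4A2 and the ratio of their estimated counts in the 6 libraries, with lines joining libraries of the same replicate number. All 3 lines slope down for COL4A2 (495 to 296 CPM in replicate 1) and up for COL4A1 (379 to 451 CPM in replicate 1, not past the test), so that the ratio passes from above 1 to below 1.

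The main transcripts of the 2 genes held most of the counts, so their ratio largely repeats that of the genes and adds no separate support. COL4A2-201 held 94.6% ± 1.26 of the COL4A2 counts in the control and 90.3% ± 3.61 in the siDDX5 libraries, and COL4A1-201 held 98.3% ± 0.375 and 96.8% ± 2.38 of those of COL4A1 (SD, n = 3). COL4A2-216, a transcript annotated with a retained intron, made up 1.72%, 3.4% and 3.34% of COL4A2 counts in the control replicates and 4.27%, 11.2% and 4.83% in the siDDX5 replicates. Its share was above the control in all 3 siDDX5 libraries and highest in replicate 2, and its difference in usage did not pass the test over all transcripts (adjusted p = 0.399, edgeR diffSpliceDGE). Usage was called for both genes without siDDX5 replicate 1 and for COL4A1 with no filter on low counts. Neither gene was called in the other usage fits. The 4 other pairs of matrix chains that were compared did not separate the groups. The TPM ratio of COL6A2 to COL6A1, the type VI chains that form microfibrils, was 1.99 to 2.2 in the control and 1.5 to 2.04 in the siDDX5 libraries, that of COL5A2 to COL5A1 was 0.458 to 0.891 and 0.480 to 0.701, that of LAMC1 to LAMB1 was 1.37 to 1.79 and 1.60 to 1.80, and that of LAMC1 to LAMA2 was 8.57 to 9.50 and 8.80 to 10.6.

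Among the fibril-forming collagens, none of 10 tested chains passed with or without the block. COL27A1 stood at 277, 440 and 385 CPM among the controls and at 236, 259 and 320 CPM after knockdown. Its groups overlapped, and the log2 fold change was -0.42 (SE 0.12, adjusted p = 0.0967, edgeR with the block). In that fit it was -0.52 (adjusted p = 0.0423) without replicate 1, -0.25 (0.256) without replicate 2 and -0.49 (0.253) without replicate 3. COL24A1, a minor fibrillar chain, stood at 27.8, 27.6 and 24.9 CPM in the control libraries, and at 36.5, 30.6 and 29.6 CPM after knockdown. These groups did not overlap, but the log2 fold change of 0.27 (SE 0.10) had an adjusted p of 0.175 in edgeR with the block. COL5A1 varied mainly with replicate 2, which stood at 304 CPM against 597 and 508 in the other control libraries, and its fold change was 0.23 (SE 0.12) on the log2 scale.

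Apart from COL4A2, none of the other collagens passed either fit. COL14A1 stood at 284, 260 and 269 CPM in control replicates 1 to 3 and at 342, 287 and 308 CPM after knockdown, which did not overlap. Its log2 fold change was 0.20 (SE 0.09, adjusted p = 0.236, edgeR with the block). COL6A2 stood at 150, 92.2 and 108 CPM among the controls and at 97.1, 93.6 and 76.7 CPM after knockdown. Control replicate 1 was the highest library, the groups overlapped, and the log2 fold change was -0.37 (SE 0.12, adjusted p = 0.144, edgeR with the block). In that fit it was -0.56 (adjusted p = 2.08e-04) without replicate 2, -0.23 (0.265) without replicate 1 and -0.30 (0.619) without replicate 3, and with the GC correction it was -0.23 (0.148). COL15A1, a collagen of the basement membrane zone, had a log2 fold change of 0.35 (SE 0.11, adjusted p = 0.123, edgeR with the block), with 108, 62.8 and 112 CPM among the controls and 121, 100 and 132 CPM after knockdown. COL25A1, the highest of the membrane-spanning collagens, lay between 10.6 and 15.2 CPM in all libraries, with overlapping groups.

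None of the 10 tested laminin chains passed either fit. LAMC1 stood at 887, 632 and 758 CPM in the control libraries, and at 818, 627 and 744 CPM after knockdown, and LAMB1, its usual beta partner, at 301, 241 and 268 CPM and at 277, 226 and 255 CPM. In both genes replicate 1 was the highest and replicate 2 the lowest in each group, and the log2 fold changes were -0.05 (SE 0.09) and -0.10 (SE 0.09) with the block. LAMA2, the alpha chain of the muscle basement membrane, was the highest alpha chain at 23.2 ± 2.90 TPM in the control and 20.4 ± 4.42 in the siDDX5 libraries (SD, n = 3). It stood at 141, 104 and 122 CPM in control replicates 1 to 3 and at 121, 81.3 and 100 CPM after knockdown, lower in each numbered pair while the groups overlapped. Its log2 fold change was -0.29 (SE 0.08, adjusted p = 0.0979, edgeR with the block). LAMB3, a beta chain of epithelial laminin, was at 71.0, 50.8 and 50.8 CPM among the controls and at 74.6, 82.4 and 65.7 CPM after knockdown. The groups overlapped, and the log2 fold change was 0.38 (SE 0.12, adjusted p = 0.121) with the block in edgeR, and 0.44 (adjusted p = 0.0459) with the GC correction as well. With the block alone it was 0.53 (0.0247) without replicate 1, 0.22 (0.278) without replicate 2 and 0.38 (0.351) without replicate 3.

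Among the receptors, 2 of 7 tested beta chains rose with the block (28.6%, against 2.59% of all genes called). None of 10 tested alpha chains passed. With so few chains, nothing is read from these shares. ITGB3 (ENSG00000259207.7, chr17:47253846-47311816, plus strand), which pairs with ITGAV to bind vitronectin and fibronectin, stood at 21.3, 8.14 and 25.2 CPM in control replicates 1, 2 and 3 and at 30.5, 16.3 and 33.7 CPM after knockdown. The groups overlapped because replicate 2 was the lowest of both, but each siDDX5 library exceeded the control library of its number. The log2 fold change was 0.56 (SE 0.38, adjusted p = 0.610) without the block and 0.62 (SE 0.13, adjusted p = 0.0415) with it in edgeR. Of the ITGB3 exon bases, 51.6% also belong to AC068234.1, an annotated gene on the same strand with a mean of 0.0378 TPM.

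ITGB8 (ENSG00000105855.9, chr7:20330702-20415754, plus strand), also a partner of ITGAV and known for the activation of latent TGF-beta, stood at 27.5, 17.2 and 32.3 CPM in the control libraries, and at 40.9, 28.6 and 40.2 CPM after knockdown. Again replicate 2 was the lowest in both groups, which overlapped, and in each numbered pair the siDDX5 library was the higher. Its log2 fold change was 0.51 (SE 0.23, adjusted p = 0.439) without the block and 0.54 (SE 0.11, adjusted p = 0.0398) with it in edgeR. Both ITGB3 and ITGB8 passed the block fit whichever of the 3 same-numbered pairs of libraries was left out, with the highest adjusted p at 0.0397 for ITGB3 and 0.0499 for ITGB8, both without replicate 1. These smaller fits are a weak check. They called 968 genes of all without replicate 1, 1241 without replicate 2 and 211 without replicate 3, against 394 with every library. In the fit without the block, leaving out control replicate 2 alone moved ITGB3 from 0.56 to 0.21 and ITGB8 from 0.51 to 0.29 on the log2 scale. Their shared alpha partner ITGAV stood at 254, 246 and 243 CPM in control replicates 1 to 3 and at 277, 237 and 217 CPM after knockdown, with a log2 fold change of -0.03 (SE 0.09) in the block fit. In TPM both were minor partners: ITGB3 reached 0.0345 to 0.118 of the ITGAV level in the control and 0.0733 to 0.172 in the siDDX5 libraries, and ITGB8 0.0592 to 0.108 and 0.0906 to 0.144. ITGB5, the more abundant partner, reached 0.438 to 0.610 and 0.542 to 0.781 of the ITGAV level, and its log2 fold change was 0.14 (SE 0.10) in the block fit.

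ITGA6 (ENSG00000091409.14, chr2:172427354-172506282, plus strand), the alpha chain of a laminin receptor, was the most abundant alpha chain by mean TPM over the 6 libraries. In siDDX5 replicate 3 ITGA7 lay above it, at 81.0 against 78.4 TPM. ITGA6 stood at 328, 301 and 295 CPM among the controls and at 262, 237 and 200 CPM after knockdown. Every siDDX5 library lay below every control library. This gave a log2 fold change of -0.40 (SE 0.12, adjusted p = 0.252) without the block and -0.41 (SE 0.09, adjusted p = 0.0551) with it in edgeR. With the block and a correction for the GC content of genes together it was -0.44 with an adjusted p of 0.0347, and with the block alone it was -0.45 (0.0280) without replicate 1, -0.44 (0.0133) without replicate 2 and -0.33 (0.626) without replicate 3. Its TPM level relative to ITGB1 was lower as well: ITGB1 stood at 4.01 to 5.35 times the ITGA6 level in the control and at 5.56 to 7.59 times in the siDDX5 libraries.

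ITGA5, the alpha chain of the main fibronectin receptor, stood at 111, 98.3 and 125 CPM in the control libraries, and at 131, 122 and 173 CPM after knockdown. The groups overlapped at 122 and 125 CPM, and siDDX5 replicate 3 was the highest library. The log2 fold change was 0.35 (SE 0.15, adjusted p = 0.426) without the block and 0.34 (SE 0.09, adjusted p = 0.0769) with it in edgeR. With the GC correction added to the block it was 0.40 (adjusted p = 0.0339), and with the block alone it was 0.39 (0.0359) without replicate 1, 0.35 (0.0469) without replicate 2 and 0.27 (0.682) without replicate 3. ITGA7, the laminin receptor chain of muscle, stood at 127, 86.1 and 118 CPM in control replicates 1 to 3 and at 115, 107 and 148 CPM after knockdown, with overlapping groups. ITGB1 itself stood at 1169, 997 and 1188 CPM and at 1080, 937 and 1069 CPM, with a log2 fold change of -0.12 (SE 0.10) in the block fit.

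**Figure D4:**
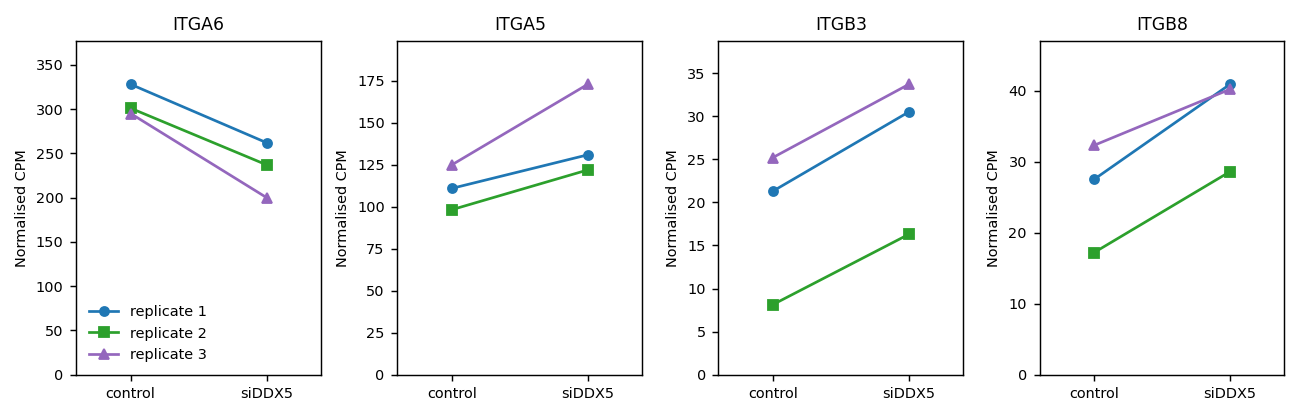
Normalised CPM of the integrin chains ITGA6, ITGA5, ITGB3 and ITGB8 in the 6 libraries, with lines joining libraries of the same replicate number. All 3 lines slope down for ITGA6 and up for the other chains, of which ITGB3 and ITGB8 passed the test with the block, and replicate 2 lies lowest for ITGB3 (8.14 and 16.3 CPM) and ITGB8 (17.2 and 28.6 CPM).

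FN1, which encodes fibronectin and is bound by ITGA5 with ITGB1, was itself low, at 9.97 ± 2.85 TPM in the control and 8.33 ± 3.69 TPM in the siDDX5 libraries (SD, n = 3). It stood at 49.3, 23.3 and 22.2 CPM among the controls and at 44.1, 20.6 and 16.2 CPM after knockdown. Replicate 1 was by far the highest of both groups, which overlapped. Its log2 fold change was -0.26 (SE 0.10, adjusted p = 0.204, edgeR with the block). The 3 integrin-binding proteins did not pass either. ITGB3BP, which is also a centromere protein, had 184 ± 5.18 TPM in the control and 170 ± 32.5 TPM in the siDDX5 libraries, and ITGB1BP1, a regulator of integrin activation, 111 ± 6.73 and 116 ± 14 TPM (SD, n = 3). ITGB1BP2, a muscle protein, was the lowest of the 3, and its log2 fold change was -0.19 (SE 0.19) in the block fit. Of the exon bases of ITGB1BP1, 33.1% overlap those of ASAP2 on the opposite strand.

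The members' variation was split into a share between replicate numbers and a share between groups, as parts of the sum of squares. The replicate number has 3 levels and the group 2. The first share therefore tends to be the larger even without any effect, and each share is set only against that of all genes. Of the variance of log2 CPM over the 6 libraries, a median of 65.0% lay between replicate numbers and 12.4% between groups for the 62 members, against 45.6% and 18.4% for all genes tested. Replicate 2 was the lowest of its group in both the control and the siDDX5 libraries for 30 of 62 members (48.4%), against 16.8% of all genes. LAMC1 had 96.4% of its variance between replicate numbers and 1.96% between groups, and FN1 93.6% and 5.06%. At the other end, ITGB1BP2 had 77.8%, ITGA6 73.5% and COL4A2 67.4% of their variance between groups. The log2 fold change of ITGB1BP2 was only -0.19 (SE 0.19) in the block fit, so a high share does not mark a large change. The labels do not say what libraries of one replicate number had in common, so the source of this shared variation was not tested.

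**Figure D5:**
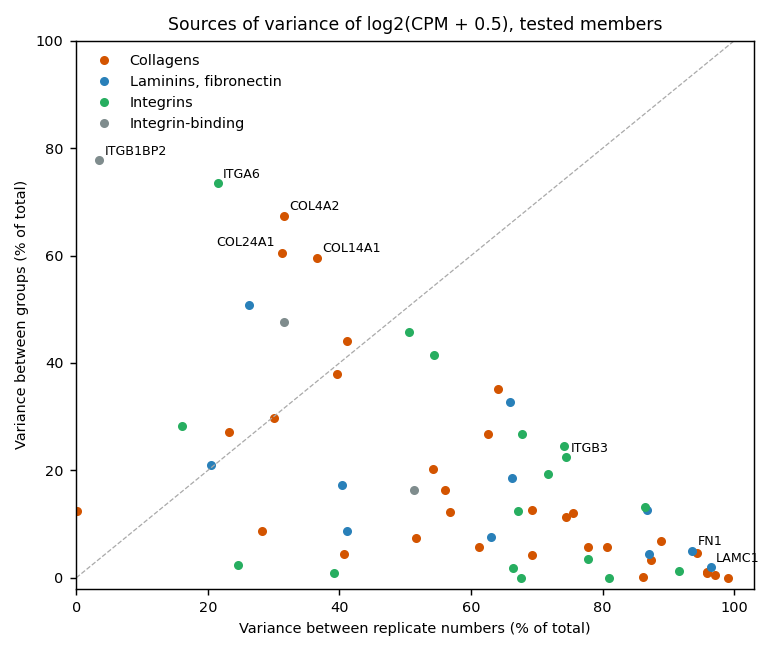
Share of the variance of log2(CPM + 0.5) between replicate numbers (x axis) and between groups (y axis) for each of the 62 tested members, by family; the dashed line marks equal shares. Most members lie below the line, with LAMC1 and FN1 at the right edge and ITGA6, COL4A2, COL14A1, COL24A1 and ITGB1BP2 above the line. The replicate number has more levels than the group, so a place below the line is favoured even without any effect.

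Transcript usage, the share of a gene's counts held by each of its transcripts, could be tested for 51 members among 10564 genes. It was called for 1 member, COL18A1, against 1.58% of all genes. With the block it was called for 0 members, against 1.21% of all genes, and 6 members (11.8%) had an unadjusted p under 0.05 in that fit, against 6.30% of all genes. COL18A1 encodes a basement membrane collagen from which endostatin is cut. The transcript behind the call, COL18A1-202, held 18.3, 66.1 and 12.8 counts in the control and 0, 0 and 4.40 in the siDDX5 replicates, at most 5.05% of the gene's counts. The main transcript of COL18A1 held 91.8%, 84.0% and 88.7% of its counts in the control and 88.2%, 45.6% and 88.0% in the siDDX5 replicates. In siDDX5 replicate 2 alone another transcript, COL18A1-204, held 569 counts (45.1%). The main transcript was joined to the gene only by its position in the tables, and without it the gene's log2 fold change moved from -0.16 to 1.07, so no direction is given for COL18A1. Of its exon bases, 16.4% overlap SLC19A1 on the opposite strand.

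The genes that make, cross-link, cut and hold these proteins were counted in the same fit, from 5 lists with 157 genes in all that are no members, of which 136 were tested. Without the block 0 passed in edgeR, and 20 (14.7%) stood at an unadjusted p under 0.05, against 11.4% of all genes. DESeq2 called 9 of the 118 to which it gave an adjusted p (7.63%), against 2.99% of all such genes. These were ADAM17, ADAM19, FERMT2, LOXL1, P4HA2, SGCB, SGCD, SPARC and TIMP2. DAG1, HSPG2 and TNS1, called with the block, were not among them. With the block 11 passed (8.09%), 5 higher and 6 lower, against 2.59% of all genes. The lists were chosen with earlier results of these data known, so nothing particular to them is read from these shares. Without both libraries of replicate 3 only LOXL1 and SGCD passed the block fit, and without those of replicate 1 or 2 it called 19 and 22 partner genes. Over all genes the same fits called 211, 968 and 1241. LOXL1 was not among the 19 (-0.56, adjusted p = 0.0553 without replicate 1), while SGCD passed in all 3 of these fits. In the fit without the block, leaving out control replicate 1 moved LOXL1 from -0.84 to -0.54, HSPG2 from -0.61 to -0.29 and DAG1 from -0.46 to -0.29.

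In the list of collagen-making enzymes and chaperones, 2 of 29 tested genes passed (6.90%, against 2.59% of all genes). P4HA2, a subunit of the prolyl hydroxylase that stabilises the collagen helix, rose from 19.2, 16.7 and 14.8 CPM among the controls to 26.1, 24.6 and 23.6 CPM after knockdown, without overlap (log2 fold change 0.56, SE 0.10, adjusted p = 0.0297, edgeR with the block). LOXL1, a cross-linking oxidase, fell from 73.1, 39.0 and 47.3 CPM to 30.4, 32.7 and 25.7 CPM, also without overlap (-0.80, SE 0.17, adjusted p = 0.0419, edgeR with the block).

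Of the basement membrane and matrix partners, 3 of 27 tested genes passed (11.1%, against 2.59% of all genes). HSPG2, which encodes perlecan, the heparan sulfate proteoglycan of basement membranes, fell from 876, 428 and 587 CPM among the controls to 491, 312 and 440 CPM after knockdown (log2 fold change -0.57, SE 0.11, adjusted p = 0.0328, edgeR with the block). DAG1, which encodes dystroglycan, the receptor that ties laminin to the muscle cell, fell from 290, 180 and 244 CPM to 189, 144 and 185 CPM (-0.45, SE 0.09, adjusted p = 0.0429, edgeR with the block). The groups overlapped for both genes, and each siDDX5 library lay below the control library of its number. SPARC, a collagen-binding matrix protein, rose from 704, 536 and 557 CPM to 938, 969 and 1000 CPM without overlap (0.70, SE 0.12, adjusted p = 0.0175, edgeR with the block).

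Of the matrix proteases and inhibitors, 3 of 23 tested genes passed (13.0%, against 2.59% of all genes). TIMP2, an inhibitor of matrix metalloproteases, fell from 303, 284 and 271 CPM among the controls to 195, 197 and 161 CPM after knockdown (log2 fold change -0.64, SE 0.09, adjusted p = 0.0120, edgeR with the block). The membrane proteases ADAM19, with a log2 fold change of 0.55 (SE 0.10, adjusted p = 0.0218, edgeR with the block), and ADAM17, with 0.43 (SE 0.08, adjusted p = 0.0351), rose. All 3 genes separated the groups without overlap.

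Of the 38 integrin-linked cytoplasmic adhesion proteins, all tested, 1 passed (2.63%, against 2.59% of all genes). This list includes ITGB1BP1, which is also a member. TNS1, which encodes tensin, fell from 136, 114 and 159 CPM among the controls to 99.9, 82.6 and 109 CPM after knockdown (log2 fold change -0.48, SE 0.08, adjusted p = 0.0195, edgeR with the block). FERMT2, which encodes the integrin activator kindlin, stood at 191, 189 and 178 CPM and at 247, 255 and 221 CPM, with an adjusted p of 0.0570 in edgeR with the block. Its groups did not overlap. DESeq2 called FERMT2, as did the block fit without replicate 1, but not the block fits without replicate 2 or replicate 3. Of 21 tested genes for other matrix receptors, 3 passed (14.3%, against 2.59% of all genes), among them DAG1 again. The sarcoglycans, which sit beside dystroglycan in the muscle membrane, went both ways: SGCD fell (-0.61, SE 0.09, adjusted p = 0.0137) and SGCB rose (0.39, SE 0.08, adjusted p = 0.0492, both edgeR with the block).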

How the data were processed

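Messenger RNA of 6 Rh30 libraries, 3 control and 3 siDDX5, was sequenced, per the labels' protocols with a stranded first-strand kit. The deposited tables give, for each of 188753 transcripts, an estimated count, which the authors left unnormalised, and a TPM value scaled for length and total. The submitters' processing notes name bcl2fastq 2.20, FastQC 0.11.8, cutadapt 1.11, kallisto 0.46.0 and the build GRCh38 (hg38). The annotation release, and whether strand was used in counting, are not given in the sources used here. Reads that fit several transcripts were split between them by the quantifier, an uncertainty that no error given here includes.

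Transcripts were joined to GENCODE release 29 by identifier (169797), gene symbol (15315) or position between transcripts of 1 gene (890), and 2751 were left out. Counts were summed per gene, rounded, filtered with filterByExpr, scaled by TMM and tested with edgeR 4.0.16 in R 4.3.3 (glmQLFit, glmQLFTest). CPM values are TMM-normalised. p-values were adjusted by Benjamini-Hochberg over all genes tested. The 3 same-numbered pairs of libraries deviated together (correlations 0.21, 0.27 and 0.58 over 15223 genes), so the replicate number, taken from the titles, was also fitted as a block. It lowered edgeR's biological coefficient of variation from 15.7% to 10.2%. Usage was tested with diffSpliceDGE and Simes p-values. The floor of 3 counts covers counting error only.

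Alternatives were DESeq2 1.42.0 (Wald test, or its size factors in edgeR), no filter on low counts or a mean of at least 50, length-scaled TPM, limma-trend (limma 3.58.1) on log2(TPM + 1) and log2(TPM + 0.1), a GC correction, the primary-assembly join, and leaving out libraries. The block fits without a replicate number, usage with identifier joins alone, and the checks of the type IV collagen ratio were added after seeing the data. The members and all lists were chosen with earlier results of these data known. Named members were those called in either fit, the 12 highest in TPM, the 10 with the smallest p, the highest of each class, 5 by name, and those called for usage. Named partner genes were those called and the 2 with the smallest p of each list. Of the partner symbols, CCN1 and CCN2 were matched by older symbols and CTAGE5 was not matched. The shared promoter is from RefSeq for GRCh38.p14, read from a table that held 60 of the members.

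On simulated counts with 200 genes changed by 1 on the log2 scale, edgeR found 96.5% of them and 13 unchanged ones among 15254 genes, and 0 among 15252 when none was changed. Where replicate effects were added, the block raised the share found from 53.5% to 94.5% among 15281 genes, and false calls from 1 to 10. These effects had the form that the block models, so a gain was built in. The planted changes were larger than the members' (-0.65 to 0.56), so these shares do not carry over to the members. Without replicate effects, 95.5% were found by DESeq2 (15254 genes) and 46% by limma-trend (14797). Where a GC trend was planted, the GC correction lowered false calls from 122 to 13 among 15270 genes. The usage test recovered 100% of 200 changed genes with 45 false calls among 10592, so a single usage call is weak.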

Additional observations from a re-analysis of the deposited data

How the results depend on the processing

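The number of all genes called, 25 with the group alone, was 323 by DESeq2, 136 with no filter on low counts, 2 with length-scaled TPM, 1 with each form of limma-trend, 394 with the replicate block and 555 with the block and GC correction. It was 0 to 15 when 1 library was left out, and with the block 968, 1241 and 211 without replicate 1, 2 or 3. Members called, 0 with the group alone, were 1 with DESeq2, 3 with the block and 6 with the block and GC correction (COL4A2, ITGA5, ITGA6, ITGB3, ITGB8 and LAMB3), and 2 to 7 with the block and 1 replicate number left out. Partner genes called, 0 with the group alone, were 9 with DESeq2, 3 with no filter, 11 with the block, 11 with the block and GC correction, and 2 to 22 with the block and 1 replicate number left out. Members called for usage, 1 with the group alone, were 2 with no filter, 0 with a mean of at least 50 counts, 0 with the block and 0 to 2 with 1 library left out. The genes called changed as well. They were COL4A1 and COL4A2 without siDDX5 replicate 1, COL5A2 and ITGA4 without siDDX5 replicate 2, and COL18A1 without siDDX5 replicate 3. None was called when a control library was left out. DDX5 was lower in every alternative run, but its adjusted p was 0.0756 with length-scaled TPM (-1.37), 0.0849 and 0.0927 with limma-trend (-1.44 for both), and it passed the threshold in some fits with 1 library left out and not in others (-1.54 to -1.30). The block changed no other call of a named member or partner gene than those given in the report.

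Over 36 named genes and 720 alternatives, 613 kept direction and side of the threshold, 83 newly passed it and 24 changed sign, in 7 genes. COL18A1 turned to 0.12 with length-scaled TPM, 0.07 with both forms of limma-trend, 0.01 with GC correction, 0.00 with the block and GC correction, and 1.07 with the primary-assembly join. COL25A1 turned to 0.00 with DESeq2 size factors, the DESeq2 test and the primary-assembly join, ran from -0.17 to 0.10 with 1 library left out, and was 0.01 and 0.06 with the block and replicate 2 or 3 left out. With 1 library left out, LAMC1 ran from -0.17 to 0.08, ITGB3BP from -0.14 to 0.01, ITGAV from -0.12 to 0.06, COL5A1 from -0.04 to 0.41, and FN1 from -0.78 to 0.25; ITGAV was 0.04 with the block and replicate 3 left out. The cause was not tested. The difference in the COL4A2 to COL4A1 ratio stayed between -0.87 and -0.95 in the 8 alternatives run. In the gene fits with the GC correction COL4A2 was at -0.53 and COL4A1 at 0.32, and with the block as well at -0.54 and 0.31. The 19 untested members held at most 31 counts over the 3 libraries of a group, and no comparison is made for them.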
